A study of Mus musculus with 16 samples.

Results

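The collagen genes of femoral cortical bone were followed in 16 mice, 8 that bore weight normally (Control) and 8 whose hindlimbs were unloaded for 7 days (HLU). The collagen genes are the features whose symbol reads Col, a number, a and a number, and the files list 44 of them among 36829 features. All mice were 11-week-old C57Bl/6 females, so age, sex and strain are shared by both groups. Unloading is the labelled difference between them, and the sequencing lane of each library is not given. HLU mice hung by the tail in a harness that kept the hind paws off the floor, while Control mice walked freely. The ends of the bones were cut off and the marrow was flushed out with saline before RNA was isolated, and each mouse has its own library. Expression was given as RPKM, read counts divided by gene length and library size, so levels of different genes depend on the gene lengths used.

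Collagens are the proteins from which the extracellular matrix is built, and each is a trimer of chains wound into a triple helix. The helix needs glycine at regular spacing along each chain, so collagen genes encode long runs of Gly-X-Y triplets. Fibrillar collagens form the cables of bone, tendon and skin, and type I collagen, made of the chains of Col1a1 and Col1a2, is the organic scaffold on which bone mineral is laid down by osteoblasts. Type III collagen, from Col3a1, belongs to soft and vessel-rich connective tissue such as marrow stroma, periosteum and vessel walls. Basement membrane collagens (type IV) form sheets under endothelium, beaded filament collagen (type VI) surrounds cells, network collagens (type VIII) form lattices around vessels, and FACIT collagens sit on the surface of fibrils.

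The repeat that defines the family was read from the longest coding transcript of each gene in GENCODE M21. The 4 stretches below open the longest unbroken run of Gly-X-Y triplets in 2 abundant chains of bone (Col1a2 and Col5a2), in the soft-tissue chain (Col3a1) and in the collagen transcript richest in G and C (Col11a2). Capitals mark the glycine codon that opens each triplet, and glycine codons at the other positions are in lower case.
Col1a2: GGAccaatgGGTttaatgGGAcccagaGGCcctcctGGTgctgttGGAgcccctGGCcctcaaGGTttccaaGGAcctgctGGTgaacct
Col3a1: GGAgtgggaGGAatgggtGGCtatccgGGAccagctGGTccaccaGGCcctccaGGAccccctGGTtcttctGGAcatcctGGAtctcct
Col5a2: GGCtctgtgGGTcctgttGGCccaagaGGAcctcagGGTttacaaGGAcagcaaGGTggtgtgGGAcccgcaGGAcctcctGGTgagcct
Col11a2: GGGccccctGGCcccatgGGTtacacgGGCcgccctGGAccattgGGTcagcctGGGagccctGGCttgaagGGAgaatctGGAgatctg
The full run held 339 triplets in Col1a2, 338 in Col1a1, 344 in Col3a1, 339 in Col5a2 and 338 in Col11a2. It was shorter in the fibrillar chains of the other branch, with 216 triplets in Col24a1 and 217 in Col27a1, and shorter still in FACIT chains, with 32 in Col12a1. The longest run of Col4a1 held 40 triplets, and interruptions of the repeat are a known feature of type IV collagen. Glycine was written mostly as GGT in Col1a1 (55.9% of its triplets) and Col1a2 (51.6%), and as GGT in 41.3% and GGA in 35.8% of those of Col3a1. Whole transcripts of the 27 collagen genes that passed the filter on low values ranged from 45.9% to 62.9% GC, with a median of 56.2% beside 49.9% over the genes that passed and could be matched.

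Of the 44 collagen genes, 27 averaged 0.5 RPKM or more and were tested, and 17 lay below that. The mean exceeded 1 RPKM for 25 genes, 10 RPKM for 12 genes and 100 RPKM for 2 genes, Col1a2 and Col1a1. Collagens took between 0.559% and 2.21% of the reads on listed features of a library, and fibrillar chains made up between 78.5% and 90.9% of the summed RPKM of all collagens. Libraries held between 7067512 and 21363584 reads by the divisor behind their RPKM values. The least abundant gene tested, Col20a1, still had 14 reads in its poorest library, and Col1a1 had between 8675 and 92428 reads, so counting error was small beside the spread between mice for the abundant chains.

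No collagen gene passed the comparison of HLU with Control. By limma, which fits each gene and moderates its variance over all 16973 features tested, 0 of the 27 collagen genes reached an unadjusted p under 0.05, which 6.18% of all features reached, and voom on the reads recovered from RPKM called 0 collagen genes as well. Of all features 5.87% were called at an unadjusted p under 0.05 with at least a 1.2-fold difference, 1.11% higher in HLU and 4.76% lower in HLU, and 0 features passed a Benjamini-Hochberg adjusted p under 0.1. The lowest limma p of a collagen gene was 0.105, adjusted to 0.744, and the exact two-sided permutation test, which runs through every division of the mice into 8 and 8, gave p between 0.130 and 0.921. Of the 27 genes, 20 had a log2 fold change above 0 and 7 below 0, with a median of 0.07, while the median over all features tested was -0.10 and 67.9% of them were below 0. Relative to that median 21 collagen genes lay above and 6 below. HLU and Control values overlapped for every collagen gene tested, as they did for all but 0.0295% of all features.

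**Figure D1:**
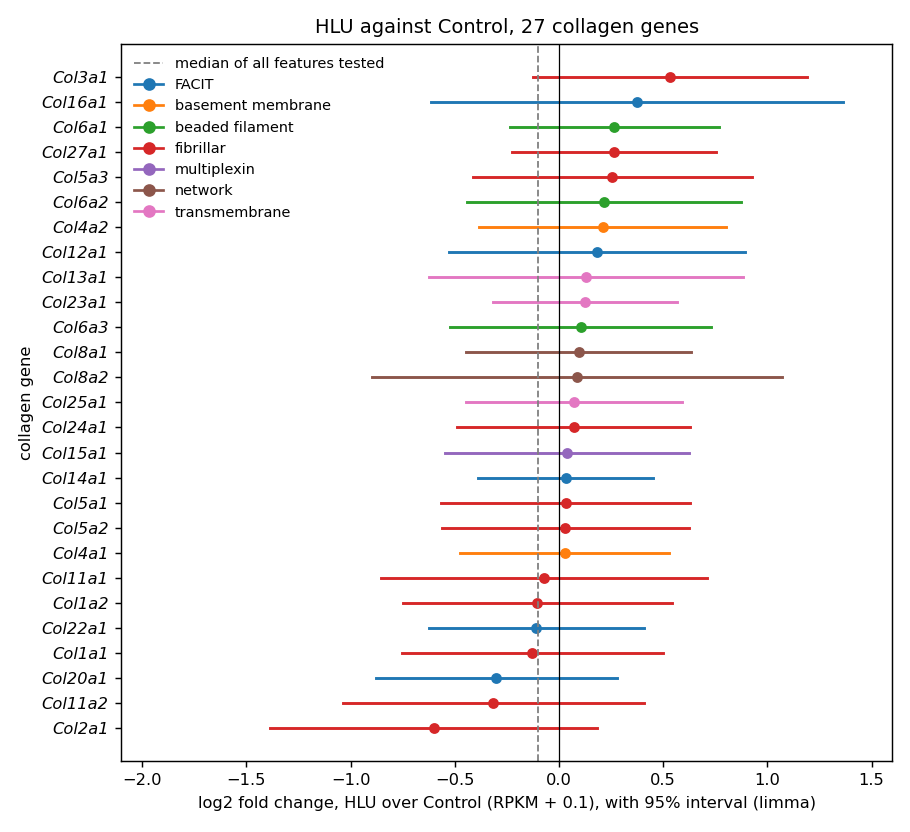
Log2 fold change of HLU over Control (horizontal axis, on RPKM + 0.1) with its 95% interval from limma for the 27 collagen genes tested, coloured by structural class; the dashed line is the median of all features tested. Every interval crosses 0, and the estimates run from -0.60 for Col2a1 to 0.53 for Col3a1.

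Collagen genes varied widely between mice of 1 group. The SD of log2 values within groups had a median of 0.60 over the 27 genes, beside 0.43 over all features tested, and 71.5% of features had a smaller SD than the median collagen gene. The SD ran from 0.36 for Col23a1 to 1.01 for Col8a2, whose product forms the lattice of type VIII collagen. At this spread the 95% interval of a collagen gene's log2 fold change, such as -0.75 to 0.50 for Col1a1, leaves room for differences in either direction.

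Col1a1 and Col1a2, which encode the α1 and α2 chains of type I collagen, were the most abundant collagens. Col1a1 spanned 161 to 450 RPKM in Control mice (median 283) and 157 to 623 RPKM in HLU mice (median 240). Col1a2 spanned 142 to 553 RPKM in Control mice (median 326) and 169 to 545 RPKM in HLU mice (median 262). For each gene 2 of the 8 HLU mice lay above the Control median, and the highest HLU mouse, HLU 1, was above or close to the highest Control mouse. The log2 fold change was -0.13 ± 0.30 (SE, n = 8 per group) for Col1a1 and -0.10 ± 0.31 for Col1a2, with limma adjusted p of 0.918 and 0.934. Both estimates lay close to the median of all features, and both moved to the other side of 0 when libraries were scaled by quantiles or by the features outside the most abundant ones.

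Col3a1, the soft-tissue fibrillar chain, was the third most abundant collagen and had the largest positive estimate. It spanned 39.5 to 154 RPKM in Control mice (median 63.5) and 72.5 to 154 RPKM in HLU mice (median 109). All 8 HLU mice lay above the Control median, but 3 Control mice, at 139, 140 and 154 RPKM, reached the top of the HLU range. The log2 fold change was 0.53 ± 0.31, with a limma p of 0.105 (adjusted 0.744) and an exact permutation p of 0.130. Leaving out Control 4, Control 5 or Control 8 brought the limma p to 0.0468, 0.0362 and 0.0479, with adjusted p between 0.570 and 0.826.

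**Figure D2:**
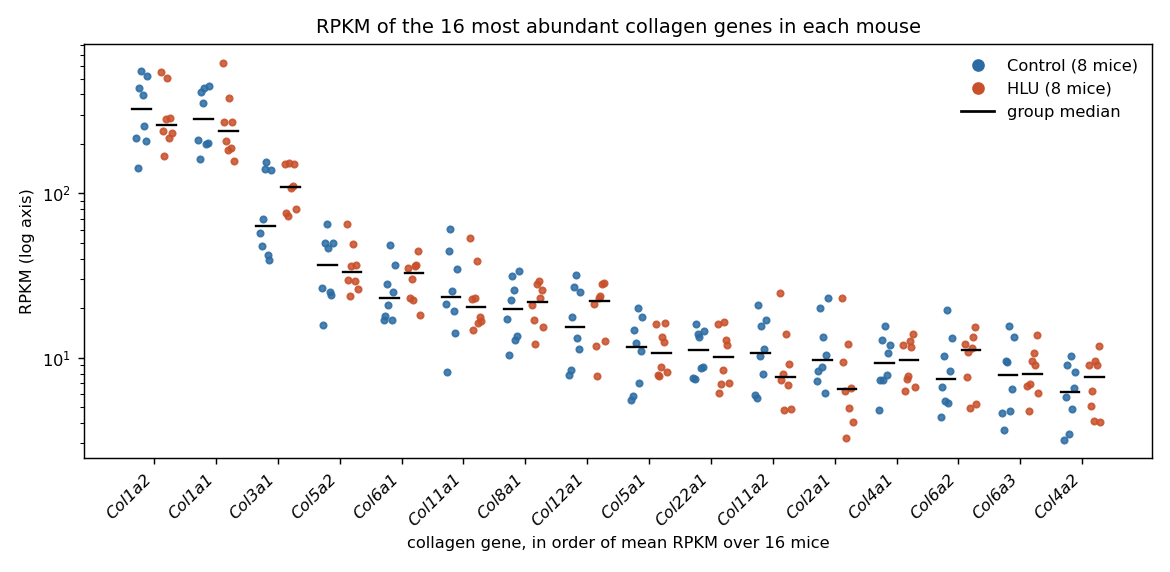
RPKM (vertical log axis) of the 16 most abundant collagen genes in each of 8 Control mice (blue) and 8 HLU mice (orange), with the group medians as bars. The 2 type I chains stand above all others, Col3a1 comes next, and the points of both groups overlap for every gene.

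Minor fibrillar chains followed at lower levels, among them those of type V, which join type I fibrils and set their width. Col5a2 (type V) spanned 15.8 to 64.7 RPKM in Control mice (median 36.4) and 23.6 to 64.8 RPKM in HLU mice (median 33.0). Col11a1 (type XI) spanned 8.22 to 60.5 RPKM in Control mice (median 23.4) and 14.7 to 53.8 RPKM in HLU mice (median 20.2). Col5a1 and Col11a2 had Control medians of 11.7 and 10.7 RPKM, Col24a1 one of 4.17, Col5a3 one of 2.34 and Col27a1 one of 0.883. Of these, Col27a1 was above its Control median in 7 of 8 HLU mice, with a log2 fold change of 0.26 ± 0.23 that did not pass the test (limma adjusted p = 0.772).

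Col2a1, the chain of cartilage collagen, had the largest negative estimate. It spanned 6.10 to 23.2 RPKM in Control mice (median 9.62) and 3.23 to 23.0 RPKM in HLU mice (median 6.43). HLU 1 and Control 8 stood at the top of their groups, and of the unloaded mice HLU 1 and HLU 5 exceeded the Control median. The log2 fold change was -0.60 ± 0.37 (limma p = 0.124, adjusted 0.747; exact permutation p = 0.156), and it passed the unadjusted threshold only without HLU 1 (limma p = 0.0192, adjusted 0.934). The cartilage collagens of types IX and X were scarce. Col9a1, Col9a2 and Col9a3 of type IX had means of 0.0713, 0.105 and 0.109 RPKM. Col10a1 (type X) of hypertrophic cartilage had a mean of 0.290 RPKM. The type XI chains were not scarce, with Control medians of 23.4 RPKM for Col11a1 and 10.7 RPKM for Col11a2. The summed RPKM of the 6 cartilage markers found in the files (among them Acan and Comp) ran from 3.70 to 22.7 in Control and from 4.69 to 21.9 in HLU mice, and 2 of the 6 were at 0 in at least 1 mouse.

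Type VI collagen, the beaded filament around cells, had 3 chains above the filter and 3 below it. Col6a1 spanned 16.8 to 48.6 RPKM in Control mice (median 23.0) and 18.1 to 44.4 RPKM in HLU mice (median 32.7). Its log2 fold change was 0.27 ± 0.24 (limma adjusted p = 0.773), and 5 of 8 HLU mice were above the Control median. Col6a2 and Col6a3 had Control medians of 7.43 and 7.87 RPKM and log2 fold changes of 0.22 ± 0.31 and 0.10 ± 0.30. The genes of the alternative chains, Col6a4, Col6a5 and Col6a6, had means of 0.0508, 0.289 and 0.0538 RPKM.

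Among network and FACIT collagens, Col8a1, Col12a1 and Col22a1 were the abundant ones. Col8a1, a type VIII chain of vessel-associated lattices, ranged from 10.4 to 33.5 RPKM in Control and from 12.1 to 29.1 RPKM in HLU mice. Col12a1, a FACIT of dense connective tissue and periosteum, spanned 7.88 to 31.8 RPKM in Control mice (median 15.5) and 7.68 to 28.3 RPKM in HLU mice (median 22.1), for a log2 fold change of 0.18 ± 0.34. Col22a1, a FACIT of tissue junctions, had medians of 11.1 and 10.1 RPKM. Col16a1 had the second largest positive estimate, 0.37 ± 0.47 on medians of 1.25 and 1.70 RPKM, with 4 of 8 HLU mice above the Control median (limma adjusted p = 0.840). Col20a1 was lower than its Control median in all 8 HLU mice, but its log2 fold change of -0.30 ± 0.27 did not pass the test (limma adjusted p = 0.773), and its medians were 0.772 and 0.587 RPKM.

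The chains of the ubiquitous basement membrane, Col4a1 and Col4a2, were expressed at lower levels than type I collagen in every mouse. Col4a1 had medians of 9.25 RPKM in Control and 9.69 RPKM in HLU mice within a range of 4.80 to 15.5 RPKM over all 16, and Col4a2 had medians of 6.14 and 7.60 RPKM. Their log2 fold changes were 0.03 ± 0.24 and 0.21 ± 0.28. The chains of specialised membranes, Col4a3, Col4a4, Col4a5 and Col4a6, stayed under the filter at means from 0.0392 to 0.190 RPKM.

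Col4a1 and Col4a2 lie head to head. In the RefSeq promoter table (GRCm38.p6) Col4a1 starts on the minus strand at base 11312826 and Col4a2 on the plus strand at base 11312805 of chromosome 8, so that the annotated starts overlap by 22 bases. The stretch at chr8:11312801-11312830 holds both starts, and the bases between them are in capitals.
Col4a1/Col4a2: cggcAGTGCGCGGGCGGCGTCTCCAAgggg
Across mice the pair moved closely together. The deviations of log2 values from the group means correlated with r = 0.934 (Pearson) and 0.915 (Spearman), each with a Benjamini-Hochberg adjusted permutation p of 0.00016 over 16 relations. Within groups the pair gave r = 0.939 (Control) and r = 0.931 (HLU), with unadjusted permutation p of 0.00021 and 0.0055. Such closeness was not particular to this pair. Col5a3 gave r = 0.965 with Col4a1 and 0.962 with Col4a2, and Col6a2 gave r = 0.934 with Col4a2. Whether the shared start bears on the relation was not tested.

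The membrane-bound collagens Col13a1, Col23a1 and Col25a1 and the multiplexin Col15a1, a collagen of vessel and muscle basement zones, had means from 0.776 to 2.03 RPKM. Their log2 fold changes ran from 0.04 for Col15a1 to 0.13 for Col13a1. Below the filter lay Col18a1 (mean 0.492 RPKM), the source of endostatin, Col7a1 of anchoring fibrils (0.219 RPKM), and the epithelial Col17a1 (0.0285 RPKM). In 9 of the 44 genes at least 1 mouse was listed at 0. With 3 reads as the limit that a count of 0 allows, Col17a1 had a floor between 0.0223 and 0.0674 RPKM and lay under it in 11 of 16 mice, and Col19a1 lay under its floor in 12 mice.

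The balance of bone collagen against soft-tissue collagen was compared within each library, where scaling between libraries drops out. The ratio of Col1a1 to Col3a1 spanned 2.55 to 5.95 in Control mice (median 3.51) and 1.19 to 4.14 in HLU mice (median 2.41). Of the 8 HLU mice, 4 lay below every Control mouse, and the other 4 lay inside the Control range. On the log2 scale the ratio was 0.66 lower in HLU (1.92 ± 0.43 in Control and 1.26 ± 0.64 in HLU, SD, n = 8 each; exact two-sided permutation test p = 0.0300). The ratio of Col1a2 to Col3a1 gave a difference of -0.64 with p = 0.0207 by the same exact test. Over the 10 collagen ratios compared, the adjusted p was 0.102 for both, so neither passed a 0.05 threshold after Benjamini-Hochberg adjustment. This adjusted p is set, and lowered, by Col3a1 over Col5a2 (exact permutation p = 0.0306), a ratio added after values were seen. Leaving out any of Control 3, Control 6, Control 7, HLU 4, HLU 6, HLU 7 or HLU 8 took the exact p of the Col1a1 ratio to between 0.0530 and 0.0603.

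**Figure D3:**
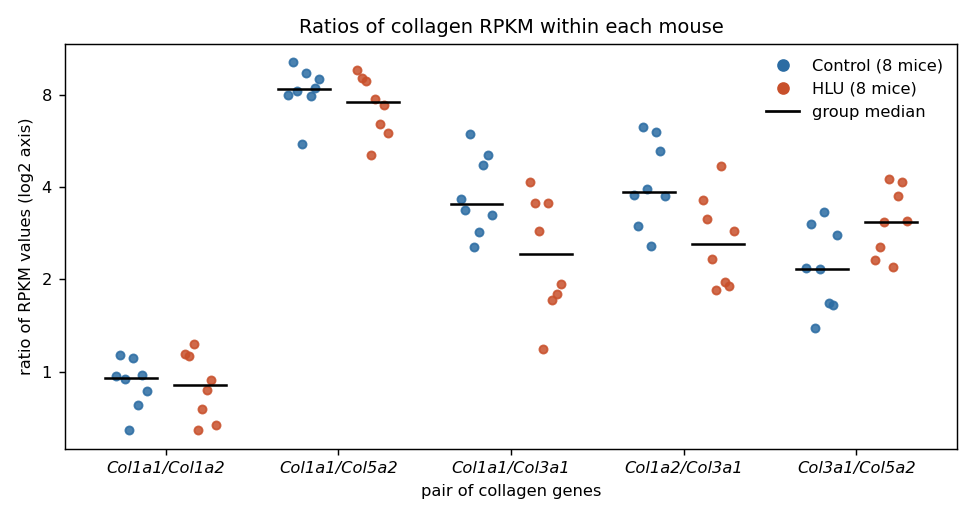
Ratio of RPKM values (vertical log2 axis) for 5 pairs of collagen genes in each of 8 Control (blue) and 8 HLU mice (orange), with group medians as bars. Col1a1 over Col1a2 has nearly the same median in both groups, and both type I chains over Col3a1 reach lower values in HLU mice while most points overlap.

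None of the 7 ratios without Col3a1 reached an exact p under 0.05. Col1a1 over Col1a2, the chains of 1 protein, had a log2 difference of -0.02 (exact permutation p = 0.887), and Col1a1 over the type V chain Col5a2 one of -0.16 (exact permutation p = 0.303). Col3a1 over Col5a2, a ratio added after values were seen, was 0.50 higher in HLU (exact permutation p = 0.0306, adjusted 0.102). The Col4a1 to Col4a2, Col6a1 to Col6a2 and Col5a2 to Col5a1 ratios differed by -0.18, 0.05 and -0.0011 on the log2 scale (exact permutation p from 0.123 to 0.995). Col11a1 over Col11a2 differed by 0.25 (exact permutation p = 0.432). Col2a1 over Col11a1 had a log2 difference of -0.53, with all 8 HLU mice below the Control median (exact permutation p = 0.163).

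The level of Col1a1 against Col1a2 depended on the gene lengths used. The files list no lengths. Those inferred from the RPKM values, as the lengths at which each value is a whole number of reads, were 16097 bases for Col1a2 and 7616 for Col1a1, while the longest coding transcripts of GENCODE M21 have 5348 and 5930 bases. By RPKM as given the median ratio of Col1a1 to Col1a2 was 0.944, and with the transcript lengths it was 0.403. Inferred lengths also differed for other collagens, such as Col6a2 (8440 against 4653 bases) and Col27a1 (16912 against 7612). That of Col8a1 was equal (5108), and that of Col20a1 was shorter (4475 against 5012). The median ratio of Col1a2 to Col3a1 was 3.39 as given and 6.55 with the transcript lengths. Levels, ranks and shares of genes thus depend on these lengths, as does the filter, which Col18a1 (0.492 RPKM) narrowly missed. Fold changes between groups depend on them only through the filter and the added 0.1 RPKM.

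The bases before the starts of Col1a2 and Col3a1 are given because the ratio above sets these genes against each other. Of the 44 genes 35, and of the 27 tested 21, matched the RefSeq promoter table of GRCm38.p6. Each line holds the 250 bases before the annotated start, with matches to the TATA motif TATAAA, to the CCAAT motif or to the GC box GGGCGG on either strand in capitals.
Col1a2 (chr6:4505368-4505617, plus strand): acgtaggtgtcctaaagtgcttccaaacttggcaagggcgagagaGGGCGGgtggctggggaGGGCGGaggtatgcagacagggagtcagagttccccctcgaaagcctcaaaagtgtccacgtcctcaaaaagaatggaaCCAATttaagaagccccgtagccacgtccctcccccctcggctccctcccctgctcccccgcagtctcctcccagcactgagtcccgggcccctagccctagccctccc
Col3a1 (chr1:45311288-45311537, plus strand): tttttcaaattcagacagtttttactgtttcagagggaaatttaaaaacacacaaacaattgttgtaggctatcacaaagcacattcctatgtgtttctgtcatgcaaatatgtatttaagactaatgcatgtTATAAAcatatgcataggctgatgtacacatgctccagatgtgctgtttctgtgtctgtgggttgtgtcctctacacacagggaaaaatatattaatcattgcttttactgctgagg
The Col1a2 window was 62.0% GC and that of Col3a1 35.2% GC. Over full windows of 300 bases, GGGCGG was found on either strand in 14 of the 21 matched genes (66.7%) and in 35.7% of all 32851 windows, CCAAT in 7 genes (33.3%) and in 37.4% of windows, and TATAAA in 3 genes (14.3%) and in 13.6% of windows. A collagen gene was counted if any of its windows matched, while the comparison counts single windows. Col4a1 and Col4a2, both counted for GGGCGG and for CCAAT, have windows that share 78 bases, and their stretch printed above holds GGGCGG. Member windows had a median GC content of 61.3% beside 52.7% over all windows, and a match is a description of letters only.

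Between mice, collagen genes rose and fell together. Over the 351 pairs of the 27 genes, the deviations from group means correlated with a median r of 0.66, and 253 pairs (72.1%) were above 0.5. Over all pairs of the features tested the median r was 0.04, and 16.9% of pairs were above 0.5. The pairs share genes and the same 16 libraries, so the median and the counts are a description, and no p was computed for them. The closest pair was Col1a2 with Col5a2 at r = 0.98, and Col14a1, a FACIT, stood apart with r below 0 against most of the others (lowest r -0.60).

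**Figure D4:**
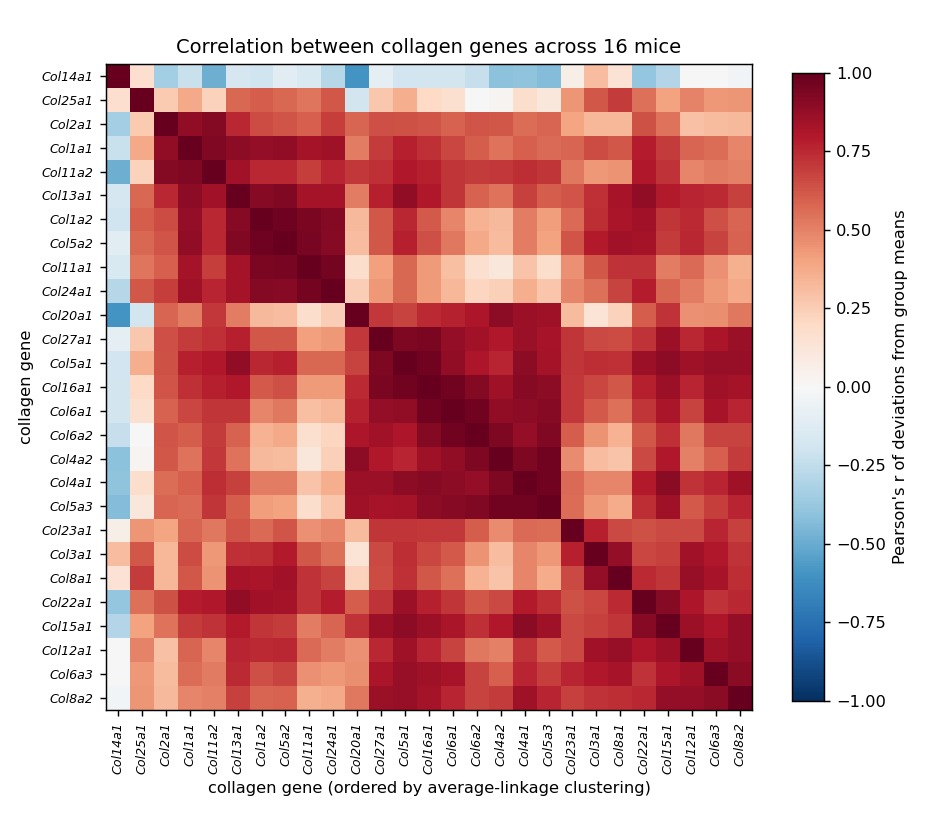
Pearson's r between the 27 collagen genes over 16 mice, computed on deviations of log2(RPKM + 0.1) from group means, with genes ordered by average-linkage clustering. Col2a1, Col1a1, Col11a2, Col13a1, Col1a2, Col5a2, Col11a1 and Col24a1 stand next to each other, as do Col27a1, Col5a1, Col16a1, Col6a1, Col6a2, Col4a2, Col4a1 and Col5a3, and Col14a1 is blue against most genes.

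Among the relations fixed for testing, Col1a1 was tightly tied to 3 other fibrillar chains. Col1a1 correlated with Col1a2 at r = 0.878 (rho 0.785), with Col5a2 at r = 0.887 (rho 0.80) and with Col11a1 at r = 0.832 (rho 0.759), each with an adjusted permutation p of 0.00072 for r and between 0.00432 and 0.00512 for rho. Without the mice farthest from the Col1a1 median, Control 8 and HLU 1, these 3 values of r were 0.842, 0.858 and 0.784. Col1a1 with Col3a1 gave r = 0.651 and rho 0.582 (adjusted permutation p = 0.0210 and 0.0484), 0.865 in Control mice and 0.383 in HLU mice. The difference between those groups' correlations was not tested. Without the same mice r was 0.609 and no longer passed (adjusted permutation p = 0.0651). Col3a1 correlated with Col5a2 at r = 0.792 and with Col6a1 at r = 0.616 (adjusted permutation p = 0.0032 and 0.0355), and at 0.771 and 0.630 without Control 6 and Control 7, the mice farthest from its median, where the relation with Col6a1 no longer passed (adjusted permutation p = 0.0632). Col3a1 with Col4a1 reached r = 0.489 (adjusted permutation p = 0.0876).

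Marker scores of several cell types correlated with collagen genes across mice, some positively and some negatively. A score is the mean of centred log2 values over a marker list. Col3a1 correlated with the granulocyte score (6 genes, among them S100a8, Ngp and Ltf) at r = -0.671 and rho -0.718 (adjusted permutation p = 0.00144 for r), with -0.680 in Control and -0.958 in HLU mice, and -0.724 without Control 6 and Control 7. With the erythroid score (7 genes, among them Alas2 and Slc4a1) it gave r = -0.528 (adjusted permutation p = 0.0418), but rho -0.515 did not pass (adjusted permutation p = 0.0532). This r was -0.308 in Control and -0.950 in HLU mice. Without Control 6 and Control 7 it was -0.409 and no longer passed the threshold. With the tendon and fibroblast score (9 genes, among them Tnmd, Scx, Dpt and Lum) Col3a1 gave r = 0.644 (adjusted permutation p = 0.0210), and 0.738 without these mice, with 0.589 in Control and 0.810 in HLU mice. Col1a1 correlated with the osteocyte score (6 genes, among them Dmp1, Phex and Sost) at r = 0.575 (adjusted permutation p = 0.0418), which no longer passed without Control 8 and HLU 1 (r = 0.609, adjusted permutation p = 0.0632), and not past the threshold with the granulocyte score (r = -0.398), the erythroid score (r = -0.190) or the tendon and fibroblast score (r = 0.480). Col3a1 with the osteocyte score gave a similar r of 0.549, which did not pass (adjusted permutation p = 0.0672). By rank, Col1a1 and Col3a1 gave rho 0.565 and 0.585 with that score (adjusted permutation p = 0.0484 for each). In Control mice alone Col1a1 gave r = -0.840 with the granulocyte score and 0.838 with the tendon and fibroblast score, and in HLU mice alone -0.240 and 0.136. Differences between Col1a1 and Col3a1, or between groups, in these correlations were not tested. Of the 27 genes, 26 had an r below 0 with the granulocyte score, with a median of -0.57, and 26 had an r above 0 with the tendon and fibroblast score, with a median of 0.64, led by Col12a1 and Col8a2 at 0.92 each. With the osteocyte score 26 also had an r above 0, with a median of 0.65. RPKM values are shares of a library, and fewer cells of a type cannot be told apart from less RNA per cell.

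Granulocyte markers were abundant in both groups. Their summed level ranged from 17720 to 38030 RPKM in Control and from 12607 to 44809 RPKM in HLU mice, while that of the osteoblast list, which includes Bglap and Ibsp, ranged from 800 to 1530 and from 916 to 1902 RPKM. No granulocyte, erythroid, osteoblast, osteocyte, or tendon and fibroblast marker found in the files was at 0 in any mouse. The granulocyte score was 0.11 lower in HLU (exact permutation p = 0.656), the erythroid score 0.57 lower (exact permutation p = 0.0903), the osteocyte score 0.47 higher (exact permutation p = 0.0696), and the tendon and fibroblast score 0.29 higher (exact permutation p = 0.369). With the erythroid and granulocyte scores as covariates, 4 of the 27 collagen genes passed the unadjusted threshold, beside 3525 of all 16973 features (1424 higher in HLU and 2101 lower). The 4 were Col16a1, Col27a1, Col5a3 and Col6a1, all higher in HLU (limma p from 0.0322 to 0.0431, adjusted 0.160 to 0.188). Under these covariates the Col1a1 to Col3a1 difference was -0.48 (permutation p = 0.138). With the tendon and fibroblast score as covariate that difference was -0.60 (permutation p = 0.0527).

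Collagen genes differed in how they followed the base composition of the libraries. For each library the slope of expression on transcript GC content was computed over 11513 genes. It ran from -0.66 to 0.46 on the log2 scale per 10 percentage points of GC with a difference between groups of 0.00 (exact permutation p = 0.982). Collagen genes with GC-rich transcripts, such as Col4a2 (60.6% GC, r = 0.86 with the slope) and Col5a3 (61.6%, r = 0.80), were high in libraries with a high slope. Genes with GC-poor transcripts, such as Col25a1 (45.9%, r = -0.36) and Col11a1 (48.0%, r = -0.07), were not. The order was not strict. Col6a2 (56.2%) gave r = 0.85, and the GC-richest genes, Col11a2 (62.9%) and Col2a1 (62.2%), gave 0.61 and 0.54. Across the 27 genes the r with the slope correlated with GC content at 0.80 (Pearson) and 0.75 (Spearman). This is a description over genes that share the same 16 libraries and all of which also enter the slope.

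**Figure D5:**
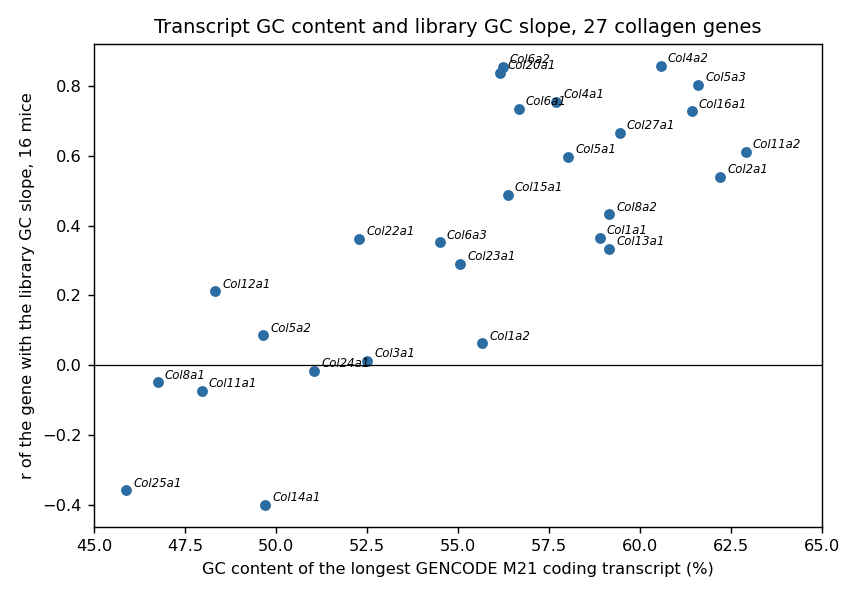
GC content of the transcript (horizontal axis, percent) against the correlation of each gene with the library GC slope over 16 mice (vertical axis), for the 27 collagen genes. Col4a2, Col6a2, Col20a1 and Col5a3 lie at the top, at 56.1% to 61.6% GC, and the GC-poor chains Col25a1 and Col14a1 at the bottom. The GC-richest chains, Col11a2 and Col2a1, lie lower, at r = 0.61 and 0.54.

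Ratios between chains correlated with the slope to unequal extents, and not in step with their difference in GC content. The strongest was Col6a1 (56.7% GC) over Col6a2 (56.2% GC), at r = -0.88. The ratio of Col11a1 (48.0% GC) to Col11a2 (62.9% GC) correlated with it at r = -0.84, that of Col1a1 (58.9%) to Col1a2 (55.7%) at r = 0.60, and that of Col1a2 to Col3a1 (52.5%) at r = 0.07. The Col1a1 to Col3a1 ratio correlated at r = 0.41, and with the slope as a covariate its difference between groups was -0.66 (permutation p = 0.0258). The common movement of collagens stayed after the slope was removed, with a median r of 0.69 over the 351 pairs beside 0.08 over all features, and r for Col4a1 with Col4a2 was then 0.85. With the granulocyte score removed the median r was 0.53 beside 0.04.

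Genes that act on collagen gave no call either. The list holds enzymes and chaperones of synthesis and assembly, and also the collagen receptors Ddr1, Ddr2, Itga1, Itga2, Itga10 and Itga11 and the uptake receptor Mrc2. Of its 44 genes 43 were in the files and 41 passed the filter, with 0 called in either direction by limma, 18 log2 fold changes above 0 and 23 below, a median of -0.02 and a lowest adjusted p of 0.750. Serpinh1, the collagen chaperone HSP47, ranged from 54.0 to 142 RPKM in Control and from 40.8 to 129 RPKM in HLU mice, with a log2 fold change of -0.27 ± 0.25. The prolyl hydroxylase P4ha1 and the lysyl hydroxylase Plod2 each had -0.11 (± 0.16 and ± 0.23), the procollagen C-proteinase Bmp1 -0.10 ± 0.39, the crosslinking enzyme Lox 0.19 ± 0.25, and the collagen-binding matricellular protein Sparc -0.08 ± 0.28. Across mice these 6 genes followed Col1a1 with r from 0.70 for Bmp1 to 0.92 for Sparc, and the median r with Col1a1 over the 41 genes was 0.64.

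The features whose pattern over the 16 mice was most like that of each collagen were ranked among 11397 features with a unique symbol and a mean of at least 2 RPKM. Closest to Col1a1 were Serpinf1 (r = 0.97), which encodes PEDF, Cgref1 (0.95), Kazald1 (0.94), Sparc (0.92) and Col11a2 (0.92). Closest to Col3a1 were Sdc2 (0.91), Sfrp2 (0.90), Fam114a1 (0.89), Matn2 (0.88) and Lum (0.88), of which Lum is also on the tendon and fibroblast list. Col3a1 had rank 294 in likeness to Col1a1, and Col1a1 had rank 437 in likeness to Col3a1.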

How the data were processed

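RNA of 16 libraries, 1 per mouse, was prepared with TruSeq v2 and sequenced on a HiSeq by the authors with 8 libraries per lane; the lane of each library is not given in the sources used here, so lane effects were not tested. The authors deposited RPKM values; their processing notes name TopHat2, mm9 and DESeq2, and the counting tool and the annotation behind the gene lengths are not given in the sources used here. DESeq2 was not run here; the count model tried, as an alternative, was limma's voom on recovered reads. From the deposited RPKM, limma 3.58.1 (R 4.3.3, trended variance) was fitted to log2(RPKM + 0.1) wherever the mean reached 0.5 RPKM, with Benjamini-Hochberg adjustment over all of them. Fold changes are on that scale and understate those of low genes. Single values were compared by two-sided exact permutation tests (smallest possible p 0.000155), and relations by 100000 permutations within groups (Python 3.11.15, numpy 2.4.6, scipy 1.17.1). Gene lengths were inferred from the RPKM values together with the reads, which were recovered as whole numbers, within 1e-05 reads, for 100% of features kept. Floors of 3 reads cover counting error only. Fit and recovery were tested on simulated data. Named genes are all collagens, the genes acting on collagen named in the report, and the 5 features most like Col1a1 and Col3a1. The collagen genes, gene lists, ratios and tests were chosen with earlier results of these data known. GC content and sequences came from GENCODE M21 and RefSeq GRCm38.p6, from which no positions were carried over to mm9. Col21a1 and Tmem38b were not analysed here. Of the 12 skeletal muscle markers listed, 1 was found in the files, so that score was not computed. The alternatives tried are described at the end.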

Additional observations from a re-analysis of the deposited data

How the results depend on the processing

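The absence of adjusted calls among collagen genes held under all 15 other settings and in every fit without 1 mouse, and an unadjusted call appeared only with blood scores as covariates or without Control 4, Control 5 or Control 8 (Col3a1) or HLU 1 (Col2a1). Alternatives with the library GC slope, the tendon and fibroblast score, or without the 2 smallest libraries were chosen after seeing the data. Called features numbered 996; with blood scores as covariates 3525 (1656 by adjusted p), with the GC slope 1652, and without 1 mouse from 591 to 1750 (653 without Control 6, 660 without Control 7, 635 without HLU 1, 591 without HLU 7 and 1750 without HLU 2). By an adjusted p under 0.1, which 0 features reached, 1 feature passed without the filter and 1 without the variance trend, and 0 to 1 without 1 mouse. Scaling moved the split of higher and lower calls from 188 and 808 to 376 and 401 (median of ratios), 460 and 364 (quantiles) and 423 and 330 (sum outside the most abundant features), and the median log2 fold change of all features from -0.10 to 0.02 by the last. Collagen calls went from 0 to 4 of 27 with blood scores, where 3525 of all 16973 features were called, and from 0 to 1 without 1 mouse. Calls among the 41 genes tested that act on collagen went from 0 to 4 with blood scores (the receptors Ddr1, Itga11 and Mrc2 higher, Pdia3 lower). With the GC slope, where 1652 of all 16973 features were called, they went to 2 (Pdia3 and Plod3, both lower). All were named after their values were seen. The cause of these changes was not tested.

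The Col1a1 to Col3a1 log2 difference kept its sign throughout, from -0.77 to -0.52 without 1 mouse. With the replicate number as a block its exact sign-flip p was 0.0625 at the same -0.66. It was -0.48 with blood scores (p = 0.138 by permutation) and -0.60 with the tendon and fibroblast score (p = 0.0527 by permutation). The replicate block gave 1039 called features and 0 collagen genes. Same-numbered mice correlated from -0.17 to 0.51, and 1 of 8 numbers correlated best with itself, so the numbers do not pair the mice. By Pearson's r, 11 of the 16 relations passed an adjusted p under 0.05, 6 in HLU mice alone and 7 without the 2 farthest mice. Without those mice Col1a1 with Col3a1 and the osteocyte score, and Col3a1 with Col6a1 and the erythroid score, no longer passed.

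Fold changes near 0 changed sign under some settings, none past the threshold. By quantile scaling they became 0.012 for Col1a1, 0.048 for Col11a1, 0.025 for Col1a2, 0.018 for Col22a1, 0.012 for P4ha1, 0.019 for Plod2 and 0.016 for Bmp1. By the sum outside the most abundant features they became 0.00060 for Col1a1, 0.057 for Col11a1, 0.024 for Col1a2, 0.018 for Col22a1, 0.015 for P4ha1, 0.015 for Plod2, 0.025 for Bmp1 and 0.049 for Sparc. By median of ratios they became 0.016 for Col11a1 and 0.0076 for Sparc. With blood scores they became -0.075 for Col14a1, -0.078 for Col5a2, -0.10 for Col24a1, -0.18 for Col25a1, -0.041 for Col8a1, 0.38 for Bmp1 and -0.017 for Lox. With array quality weights they became -0.045 for Col5a2, -0.067 for Col5a1, -0.0027 for Col24a1, -0.049 for Col15a1, -0.053 for Col4a1, -0.041 for Col6a3 and -0.16 for Col8a2. Without the 2 smallest libraries they became -0.20 for Col5a2, -0.13 for Col5a1, -0.14 for Col24a1, -0.11 for Col15a1, -0.081 for Col4a1, -0.0035 for Col12a1, -0.10 for Col6a3, -0.073 for Col8a2, -0.16 for Col13a1, -0.10 for Col8a1 and -0.036 for Lox. Without 1 mouse the ranges that crossed 0 were -0.048 to 0.14 for Col14a1, -0.13 to 0.16 for Col5a2, -0.10 to 0.16 for Col5a1, -0.29 to 0.12 for Col11a1, -0.069 to 0.18 for Col24a1, -0.078 to 0.15 for Col15a1, -0.26 to 0.016 for Col1a2, -0.10 to 0.13 for Col4a1, -0.042 to 0.25 for Col6a3, -0.16 to 0.27 for Col8a2, -0.043 to 0.26 for Col13a1, -0.043 to 0.19 for Col25a1, -0.031 to 0.21 for Col8a1, -0.21 to 0.023 for Plod2, -0.24 to 0.093 for Bmp1 and -0.23 to 0.022 for Sparc. The skeletal muscle score could not be used as a covariate, since 1 of its 12 markers was found.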
